A study of Mus musculus with 15 samples.

Results

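The genes described here are 10 genes of endotoxin sensing and of the feedback on NF-kappaB signalling: Lbp, Cd14, Ly96, Tlr4, Tlr2, Myd88, Nfkbia, Tnfaip3, Socs3 and Lcn2. They were taken by symbol from the gene names on the arrays, which hold 27343 names in all, and 12 entries of the array carry their symbols. RNA was measured on 15 Agilent 1-colour mouse arrays. The 7 mHep arrays and 7 eHep arrays come from liver cells of 3 mice, with 3 arrays of each kind from mouse 129S1-No1, 3 of each from mouse C57B6-No1 and 1 of each from mouse 129S1-No2. eHep are expandable hepatocytes kept in expansion medium, and mHep, a name the labels do not spell out, were taken as the same cells in differentiation medium, with 21 days of culture for both. The remaining array holds primary hepatocytes from mice of strain C57B6, isolated by collagenase perfusion. The labels give no age, sex or genotype other than strain, and the same mouse supplied an eHep and an mHep culture. With a single C57B6 culture, strain and individual mouse cannot be told apart. One array is titled mHep but has a source name of eHep, that of 129S1-No2, and its title was followed here. Without that mouse the differences between mHep and eHep were 2.86 for Lcn2 (adjusted p = 0.0673), 2.58 for Lbp (adjusted p = 0.0589) and 1.59 for Cd14 (adjusted p = 0.22), and none was called.

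Lipopolysaccharide, the endotoxin of Gram-negative bacteria, is carried by the lipopolysaccharide-binding protein Lbp to the co-receptor Cd14, which hands it to the Tlr4 receptor and its partner Ly96, also called MD-2. Tlr2 senses bacterial lipoproteins, and both receptors signal through the adaptor Myd88 to the NF-kappaB transcription factors. NF-kappaB switches on its own brakes, among them the inhibitor Nfkbia (IkappaB-alpha), which holds NF-kappaB in the cytoplasm, and the ubiquitin-editing enzyme Tnfaip3 (A20), while Socs3 restrains signalling by interleukin-6 through STAT3. Hepatocytes are a main source of circulating Lbp in the acute phase response, and Lcn2, lipocalin-2, is an iron-siderophore-binding protein that is induced in them during inflammation. Kupffer cells, the macrophages of liver, express Cd14 and Tlr4 strongly.

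The stretches before the transcription starts of the 3 feedback genes, of Tlr2 and of Lcn2 are shown. All come from a single reference build, and the sequences of the mice used here were not examined. They are the 250 bases before the start in RefSeq on build GRCm38.p6, written 5′ to 3′ on the strand of the gene, which is the minus strand for all 5. Capitals mark matches on either strand to the NF-kappaB consensus or to the STAT box TTCNNNGAA, and matches to the consensus may overlap each other. Tlr2 lies at chr3:83841609-83841858, Nfkbia at chr12:55492648-55492897, Tnfaip3 at chr10:19015411-19015660, Lcn2 at chr2:32387740-32387989 and Socs3 at chr11:117969367-117969616.
Tlr2: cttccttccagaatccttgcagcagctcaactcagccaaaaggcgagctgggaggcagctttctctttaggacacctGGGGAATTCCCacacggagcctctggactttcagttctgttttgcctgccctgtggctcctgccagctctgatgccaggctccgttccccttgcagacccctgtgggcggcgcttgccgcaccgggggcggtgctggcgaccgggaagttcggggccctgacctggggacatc
Nfkbia: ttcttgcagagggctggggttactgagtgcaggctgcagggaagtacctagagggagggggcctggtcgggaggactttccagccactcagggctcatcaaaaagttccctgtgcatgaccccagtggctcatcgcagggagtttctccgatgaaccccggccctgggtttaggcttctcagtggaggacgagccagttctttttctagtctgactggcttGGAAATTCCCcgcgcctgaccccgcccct
Tnfaip3: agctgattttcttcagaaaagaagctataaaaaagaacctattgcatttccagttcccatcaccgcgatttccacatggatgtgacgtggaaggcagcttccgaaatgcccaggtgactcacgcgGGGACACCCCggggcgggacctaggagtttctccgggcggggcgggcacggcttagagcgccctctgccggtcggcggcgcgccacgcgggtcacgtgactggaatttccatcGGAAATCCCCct
Lcn2: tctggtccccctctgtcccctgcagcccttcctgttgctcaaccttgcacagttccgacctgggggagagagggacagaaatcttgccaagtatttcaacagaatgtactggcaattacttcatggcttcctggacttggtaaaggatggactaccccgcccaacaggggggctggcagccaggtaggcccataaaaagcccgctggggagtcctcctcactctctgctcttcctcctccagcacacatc
Socs3: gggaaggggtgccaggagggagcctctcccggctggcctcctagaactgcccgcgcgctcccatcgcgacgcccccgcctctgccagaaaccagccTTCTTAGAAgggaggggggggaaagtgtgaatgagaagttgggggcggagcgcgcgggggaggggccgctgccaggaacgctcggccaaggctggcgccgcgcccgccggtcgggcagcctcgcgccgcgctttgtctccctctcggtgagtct

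The capitals are NF-kappaB consensus matches in Tlr2, Nfkbia and Tnfaip3, and a STAT box in Socs3. The Tlr2 stretch has 2 overlapping consensus matches that begin 173 and 172 bases before the start. Nfkbia has 1 match, which begins 29 bases before the start, and Tnfaip3 has 2, which begin 125 and 12 bases before it. The STAT box of Socs3 begins 154 bases before the start, and a STAT box in Myd88 begins 46 bases before its start. The Lcn2 stretch has neither of these letter patterns. A second Tnfaip3 start in the table has no match. Among all 32851 stretches of this length, 7.25% have an NF-kappaB consensus match and 7.02% a STAT box. A match describes the letters only. The table gave a promoter for 6 of the 10 genes, and Lbp, Cd14, Ly96 and Tlr4 were not among them.

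Levels are given as log2 of the processed signal minus the 75th percentile of the same array, so that 0 is the level of that percentile. Each array had 43379 spots. The share of entries well above background was 48.8% to 61.9% on arrays of cultured cells and 36.3% for primary cells. Arrays of the same mouse and medium correlated at 0.988 to 0.993 in 129S1-No1, but as low as 0.913 among the mHep arrays and 0.937 among the eHep arrays of C57B6-No1, where replicate 3 was scanned earlier than replicates 1 and 2. The log2 of the summed signal of 7 hepatocyte markers was 6.62 to 9.02 in mHep and 0.35 to 3.05 in eHep, against 12.25 in primary cells. Of these, Alb, Hnf4a and Asgr1 were well above background on all cultured arrays, whereas Ttr and Cps1 were not so on any eHep array. In such bulk samples fewer cells of a type and less RNA per cell cannot be told apart.

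The entries lie, on build mm9, at chr2:158154142-158157684 for Lbp, at chr18:36884969-36885028 for Cd14, at chr1:16696289-16699561 for Ly96, at chr4:66503724-66503782 for Tlr4, at chr3:83640344-83640403 for Tlr2 and at chr9:119245322-119245381 for Myd88. They lie at chr12:56590945-56591440 for Nfkbia, at chr10:18720994-18721053 for Tnfaip3, at chr11:117828658-117828717 for Socs3 and at chr2:32241037-32241281 for Lcn2. The files do not say whether they fall in coding sequence or in an untranslated region. Tlr2, Tlr4 and Myd88 were each spotted 10 times on an array, and the spots of an array had a median SD of 0.0435 for Tlr2, 0.152 for Tlr4 and 0.0489 for Myd88 on the log2 scale. Tlr4 has another entry at chr4:66590556-66590615, which was not well above background on any of the 15 arrays. It enters below only where the mean of all entries was taken. All 10 genes were well above background on all 14 cultured arrays. On the primary array Tlr4 and Tnfaip3 were not.

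**Figure D1:**
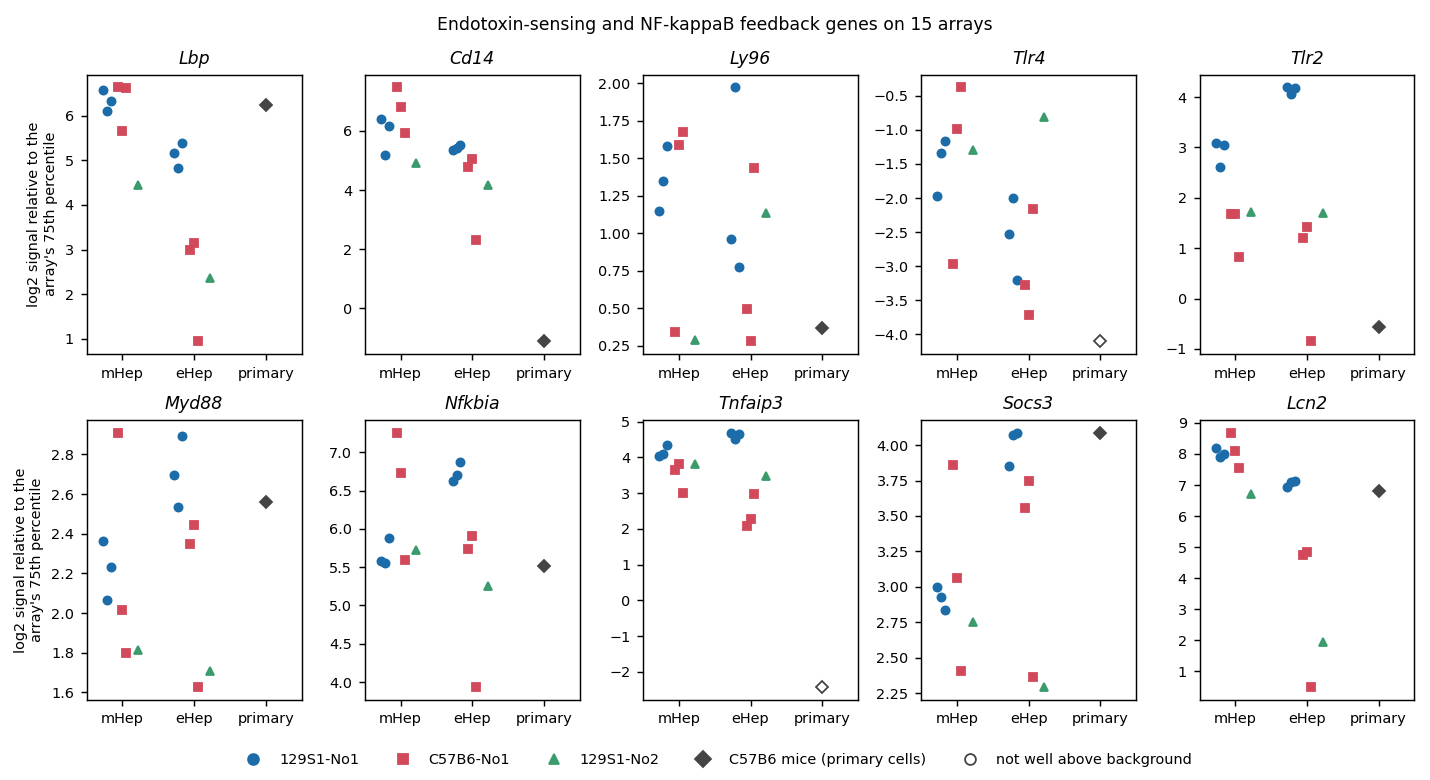
Log2 signal of each gene relative to the array's 75th percentile (vertical axis) on the mHep, eHep and primary arrays (horizontal axis), with a point per array, colour and shape for the mouse, and open points where the signal was not well above background. All cultured arrays lie above the primary array for Cd14 and Tnfaip3, and every mHep array lies above every C57B6-No1 eHep array for Lbp and Lcn2.

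Across the 3 mice, the comparison of mHep with eHep asked which of these genes differ between the 2 media. The test was limma on the means of each mouse and medium with mouse as a block, and a call was an adjusted p below 0.05 over all genes tested. None of the 10 genes was called, whereas 1.84% of the 14597 genes tested were (268 genes). By limma's p without adjustment, below 0.05, Lcn2 and Lbp passed. The median difference of the 10 genes was 0.27, against -0.10 over all genes tested.

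Lbp, the first gene of the endotoxin-binding group, was higher in mHep in all 3 mice without passing the test. Lbp was 4.45 at the lowest, 6.33 at the median and 6.63 at the highest of the 7 mHep arrays, and 0.95, 3.15 and 5.39 on the 7 eHep arrays. The ranges overlapped, but within each mouse every mHep array was above every eHep array. The mouse means averaged 5.70 ± 1.08 in mHep and 3.28 ± 1.59 in eHep (SD, n = 3), a log2 difference of 2.41 ± 0.59 (SE) with an adjusted p of 0.128 in limma. By mouse, mHep exceeded eHep by 3.94 for C57B6-No1, by 2.09 for 129S1-No2 and by 1.22 for 129S1-No1.

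Cd14, the co-receptor, was 4.90, 6.18 and 7.48 at the lowest, median and highest mHep array and 2.31, 5.04 and 5.53 at the same ranks of the eHep arrays. The mHep arrays were higher on the whole, with overlap within 129S1-No1. The log2 difference was 1.30 ± 0.54 (adjusted p = 0.344, limma), and it was positive in 3 of 3 mice, with 2.69 for C57B6-No1, 0.72 for 129S1-No2 and 0.49 for 129S1-No1. Without C57B6-No1 the mean was 0.61. Ly96, the partner of Tlr4, spanned 0.29 to 1.67 in mHep and 0.28 to 1.97 in eHep, ranges that nearly coincided, and its difference was -0.09 ± 0.43 (adjusted p = 0.955).

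Neither receptor was called. Tlr4 was low against the array's percentile in both media, at -2.97, -1.30 and -0.37 (lowest, median, highest) in mHep and -3.72, -2.52 and -0.81 in eHep. Its difference of 0.73 ± 0.52 was not called (adjusted p = 0.575), being 1.09 for 129S1-No1 and 1.61 for C57B6-No1 but -0.49 for 129S1-No2. Tlr2 was 0.82, 1.72 and 3.10 in mHep and -0.85, 1.71 and 4.20 in eHep, with 129S1-No1 at the top of both media. Its differences were 0.80 for C57B6-No1, 0.01 for 129S1-No2 and -1.22 for 129S1-No1, and the mean was -0.14 ± 0.50 (adjusted p = 0.934). The adaptor Myd88 stayed within a narrow band, 1.80 to 2.91 in mHep and 1.63 to 2.89 in eHep, with a difference of -0.09 ± 0.38 (adjusted p = 0.943).

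Of the feedback genes, Nfkbia was at 5.55, 5.72 and 7.25 (lowest, median, highest) in mHep and 3.93, 5.91 and 6.88 in eHep. The mean difference was 0.24 ± 0.55 (adjusted p = 0.886), with 1.33 for C57B6-No1, 0.46 for 129S1-No2 and -1.07 for 129S1-No1. Tnfaip3 ran from 3.00 to 4.36 in mHep and from 2.08 to 4.68 in eHep, a wider spread in eHep. Its differences by mouse, given in that order, were 1.04, 0.32 and -0.44, around a mean of 0.30 ± 0.44 (adjusted p = 0.814). Socs3 had a difference of -0.25 ± 0.45 (adjusted p = 0.856) on the entry used here, and its second entry is described further on.

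Lcn2 varied widely among the eHep arrays and little among the mHep arrays. It was 6.70, 8.01 and 8.67 (lowest, median, highest) on the mHep arrays and 0.50, 4.84 and 7.13 on the eHep arrays. Only the eHep arrays of 129S1-No1, at 6.93 to 7.13, reached the range of mHep. The log2 difference was 3.49 ± 0.81, 11.2-fold, with an adjusted p of 0.115 in limma, and it was 4.73 for C57B6-No1, 4.75 for 129S1-No2 and 0.98 for 129S1-No1.

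The call for Lbp and Lcn2 in this comparison depended on mice and scans. Without 129S1-No1, Lbp differed by 3.01 (adjusted p = 0.0239) and Lcn2 by 4.74 (adjusted p = 0.00133). In the arrays of the earlier scan, which hold C57B6-No1 replicate 3 and 129S1-No2, the differences were 3.88 for Lbp (adjusted p = 0.00464), 5.90 for Lcn2 (adjusted p = 6.69e-05) and 2.16 for Cd14 (adjusted p = 0.0585). In the arrays of the later scan, which hold 129S1-No1 and the other C57B6-No1 replicates, they were 2.14 for Lbp (adjusted p = 0.111), 2.28 for Lcn2 (adjusted p = 0.127) and 1.36 for Cd14 (adjusted p = 0.308). The scans also differ in the mice they hold. Each of these fits holds only C57B6-No1 and a single 129S1 mouse, so its p-values rest largely on the spread that limma pools over all genes tested. The eHep array of C57B6-No1 in the earlier scan was the lowest eHep array for Lbp, Lcn2 and Cd14.

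**Figure D2:**
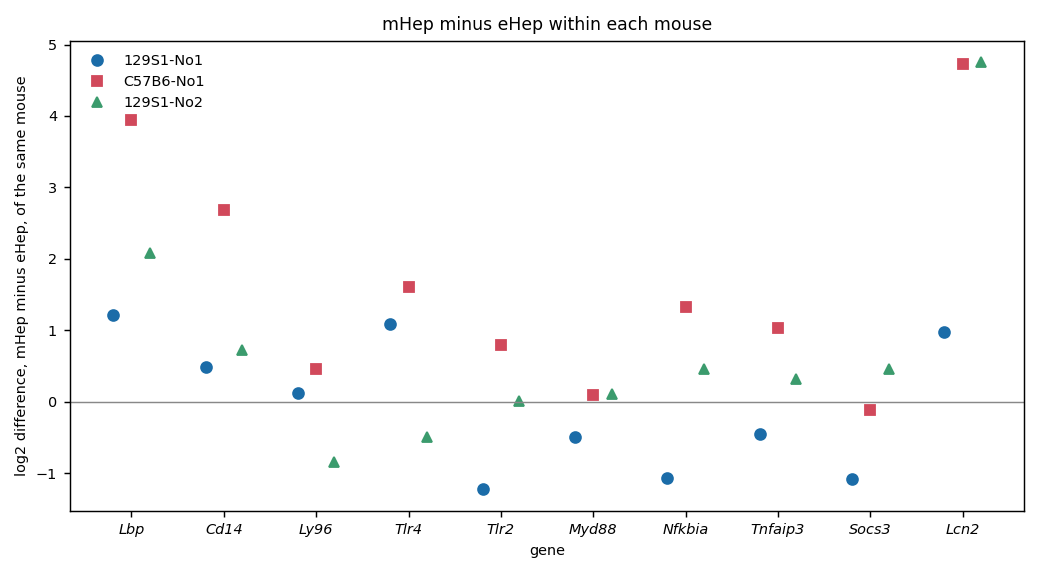
Log2 difference of mHep minus eHep (vertical axis) for each gene (horizontal axis) within each of the 3 mice, each point the difference between the mouse's mean levels. Lbp, Cd14 and Lcn2 lie above 0 in all 3 mice, and for Tlr2, Nfkbia and Tnfaip3 the value is below 0 in 129S1-No1 (0.04 for Tnfaip3 after quantile normalization) and above 0 in the other mice.

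Within C57B6-No1, 4 of the 10 genes rose: Lcn2, Lbp, Cd14 and Tnfaip3. The fit took the 12 arrays of 129S1-No1 and C57B6-No1. None of the 10 was called lower in it. Socs3 was taken by its opposite-strand entry, and its RefSeq entry, described further on, was called higher (1.56, adjusted p = 0.0173). Over all 15744 genes tested in this mouse, 25.2% were called, 1851 higher and 2111 lower. The spread in this fit is that between arrays of a single mouse and medium, which may be technical. The median difference was 1.18 for the 10 genes and -0.09 over all genes.

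Lcn2 in C57B6-No1 was 8.67, 8.09 and 7.54 on the mHep arrays and 4.76, 4.84 and 0.50 on the eHep arrays of replicates 1, 2 and 3. The groups did not overlap, and eHep replicate 3 stood far below the others. The log2 difference was 4.73 ± 0.92, 26.6-fold (adjusted p = 0.00351, limma). Lbp was 6.63, 5.66 and 6.61 in mHep and 2.99, 3.15 and 0.95 in eHep. Again there was no overlap, and the difference was 3.94 ± 0.52, 15.3-fold (adjusted p = 0.000332).

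Cd14 in C57B6-No1 was 7.48, 6.81 and 5.91 in mHep and 4.78, 5.04 and 2.31 in eHep, groups that did not overlap. It differed by 2.69 ± 0.66, 6.44-fold (adjusted p = 0.0125). Tnfaip3 was 3.65, 3.81 and 3.00 in mHep and 2.08, 2.29 and 2.98 in eHep, where the third replicates of the 2 media nearly met. Its difference was 1.04 ± 0.28, 2.05-fold (adjusted p = 0.0198). With slide as a block the values of this mouse came from replicate 3 alone, as no other slide held both of its media. They were 7.04 for Lcn2, 5.66 for Lbp, 3.61 for Cd14, 1.67 for Tlr2, 1.67 for Nfkbia and 0.02 for Tnfaip3. Tnfaip3 lost its call without eHep replicate 2-1 (0.85, adjusted p = 0.0872) or eHep replicate 2-2 (0.96, adjusted p = 0.069), where the numbers give mouse and replicate. It also lost it without mHep replicate 2-2 (0.87, adjusted p = 0.0752) and after normexp background correction (0.99, adjusted p = 0.131). Lcn2, Lbp and Cd14 were called in this mouse whichever of the 12 arrays was left out, at 3.30 to 5.47 for Lcn2, 3.23 to 4.33 for Lbp and 1.82 to 3.19 for Cd14. The lowest of these were the values without eHep replicate 2-3.

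In the same mouse Nfkbia was 7.25, 6.73 and 5.60 in mHep and 5.74, 5.91 and 3.93 in eHep, a difference of 1.33 ± 0.52 (adjusted p = 0.0874), and the groups overlapped through replicate 3. Tlr4 differed by 1.61 ± 0.63 (adjusted p = 0.0907), Tlr2 by 0.80 ± 0.51 (adjusted p = 0.302), Ly96 by 0.46 ± 0.45 and Myd88 by 0.10 ± 0.31, all above 0, and Socs3 by -0.11 on the entry used here. In the arrays of the later scan alone, 5 of the 10 genes were called higher, against 31.6% of all genes called, with Lcn2 at 3.58, Lbp at 3.07, Cd14 at 2.23, Tnfaip3 at 1.55 and Nfkbia at 1.16 (adjusted p = 0.00437).

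In 129S1-No1 the same step gave 1 call among the 10 genes, beside 44.4% of the 15744 genes tested. It was the Socs3 entry annotated on the strand opposite to the gene, which fell by 1.08 on the log2 scale (SE 0.40, adjusted p = 0.0493 in limma). On the RefSeq entry, described further on, the difference was -0.81 (adjusted p = 0.129), without a call. The opposite-strand entry was 3.00, 2.93 and 2.84 on the mHep arrays and 3.85, 4.07 and 4.09 on the eHep arrays of this mouse, with no overlap. The median over all genes in this mouse was -0.38 on the 75th percentile scale, and 0.02 when the percentile was taken over the entries detected on all arrays. Against quantile-normalized values Socs3 fell by 0.67 (adjusted p = 0.119). The Socs3 call was also lost whichever of the 6 arrays of 129S1-No1 was left out, with values between -1.16 and -1.04 (adjusted p 0.0848 to 0.121), and without eHep replicate 2-1 (adjusted p = 0.0586) or mHep replicate 2-2 (adjusted p = 0.0639). The eHep arrays of this mouse were on slide 1 and its mHep arrays on slide 2, so within 129S1-No1 medium and slide cannot be told apart. A fit of the 12 arrays with slide as a block, where arrays of C57B6-No1 link the slides, gave -1.27 for Socs3, which was not called (adjusted p = 0.0767), and -1.45 for Tlr2, which was (adjusted p = 0.0305).

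No other gene was called in 129S1-No1 on this scale. Tlr2 was 3.10, 2.62 and 3.05 on the mHep arrays and 4.20, 4.07 and 4.17 on the eHep arrays, and Nfkbia was 5.58, 5.55 and 5.89 in mHep and 6.63, 6.71 and 6.88 in eHep. Neither pair of groups overlapped, with mHep lower in both. The fit gave -1.22 ± 0.51 for Tlr2 (adjusted p = 0.0716) and -1.07 ± 0.52 for Nfkbia (adjusted p = 0.113). Lbp, at 6.58, 6.10 and 6.33 in mHep and 5.15, 4.82 and 5.39 in eHep, differed by 1.22 ± 0.52 (adjusted p = 0.077). Under some other scalings Lbp was called higher and Socs3 was not called. Lbp was then at 1.85 after quantile normalization (adjusted p = 0.0199), 1.85 in the authors' deposited table (adjusted p = 0.0198) and 1.62 with the percentile over entries detected on all arrays (adjusted p = 0.0201). In this mouse the deposited table nearly repeated the quantile-normalized value of each gene, so these are not separate scalings. Median scaling went the other way, without a call for Lbp (1.19, adjusted p = 0.0617). There Socs3 (-1.11, adjusted p = 0.0204) and Tlr2 (-1.25, adjusted p = 0.0326) were called lower. Lcn2, at 8.19, 7.89 and 8.01 in mHep and 6.93, 7.09 and 7.13 in eHep, differed by 0.98 ± 0.92 (adjusted p = 0.386).

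These tests shared their spread with C57B6-No1, whose replicate 3 arrays stood apart. Without those 2 arrays, in the later scan alone, the fit of 129S1-No1 called 6 of the 10 genes and 67.2% of all genes. Lbp (adjusted p = 0.00328) and Lcn2 (adjusted p = 0.0014) were then higher in mHep. Tlr2 (adjusted p = 0.000269), Nfkbia (adjusted p = 0.000954), Tnfaip3 (adjusted p = 0.0295) and the Socs3 entry (adjusted p = 0.00167) were lower, with the same differences as above. The Tnfaip3 value of -0.44 was 0.04 after quantile normalization.

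The step from eHep to mHep was then compared between the mice by the interaction term of the same fit. For 3 of the 10 genes the difference was larger in C57B6-No1 than in 129S1-No1, and for none was it smaller, against 16.6% called over all 15744 genes. The median of this difference of differences was 1.75 for the 10 genes and 0.26 over all genes. Lbp differed by 2.72 ± 0.73 (adjusted p = 0.0298), Nfkbia by 2.40 ± 0.73 (adjusted p = 0.0474) and Tnfaip3 by 1.48 ± 0.40 (adjusted p = 0.0298). For Lbp the difference was between 2 positive values. For Nfkbia and Tnfaip3 the values had opposite signs, 1.33 and 1.04 in C57B6-No1 and -1.07 and -0.44 in 129S1-No1. After quantile normalization the 129S1-No1 value of Nfkbia was -0.33 (adjusted p = 0.502). Lcn2, with 3.75 ± 1.29 (adjusted p = 0.0715), Cd14, with 2.20 ± 0.94 (adjusted p = 0.132), and Tlr2, with 2.02 ± 0.72 (adjusted p = 0.0794), were not called.

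These calls were near the threshold. None of the 10 genes was called in this contrast after quantile normalization or normexp background correction. None was called either when any of the 6 arrays of 129S1-No1 or mHep replicate 2-1 was left out, and in those 7 fits the values lay between 2.56 and 2.87 for Lbp, 2.04 and 2.51 for Nfkbia and 1.40 and 1.58 for Tnfaip3. Quantile normalization gave 2.32 for Lbp (adjusted p = 0.0579), 1.76 for Nfkbia (adjusted p = 0.0502) and 1.10 for Tnfaip3 (adjusted p = 0.0886). Of the arrays of C57B6-No1, only Lbp was called without mHep replicate 2-2, Tnfaip3 lost its call without eHep replicate 2-1 or 2-2, and Nfkbia lost it without eHep replicate 2-1 or 2-3. With slide as a block Tnfaip3 was at 0.67, where the value of C57B6-No1 came from its replicate 3 alone. With the replicate number as a block the adjusted p of Tnfaip3 was 0.0504. With the later scan alone 6 of the 10 were called (36.4% of all genes), with Lcn2 at 2.60, Nfkbia at 2.23, Tnfaip3 at 1.99, Lbp at 1.86, Cd14 at 1.74 and Tlr2 at 1.59.

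The levels behind these differences were not alike between mice. Lcn2 averaged 8.10 for C57B6-No1, 6.70 for 129S1-No2 and 8.03 for 129S1-No1 in mHep, and 3.37, 1.95 and 7.05 in eHep of the same mice. Lbp had mHep means of 6.30, 4.45 and 6.34 and eHep means of 2.36, 2.36 and 5.12 in the same order of mice. Tlr2 in eHep was 0.59 for C57B6-No1, 1.71 for 129S1-No2 and 4.15 for 129S1-No1. These differences in level between mice were not tested.

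Socs3 needs both of its entries. The entry used above, chosen because it has the higher mean level, is annotated on the plus strand, whereas RefSeq places Socs3 on the minus strand. The other entry, taken from the RefSeq transcript, lies at chr11:117827480-117827539 (mm9) on the strand of the gene. Over the 15 arrays the levels of both entries had a Pearson r of 0.676, a description only, since the arrays share mice and depth. On the RefSeq entry Socs3 in C57B6-No1 was 4.14, 3.68 and 3.58 in mHep and 2.71, 2.77 and 1.25 in eHep, with no overlap, a difference of 1.56 ± 0.41 (adjusted p = 0.0173). In 129S1-No1 it was 3.79, 2.76 and 3.37 in mHep and 4.26, 3.82 and 4.26 in eHep, a difference of -0.81 ± 0.41 (adjusted p = 0.129), and the difference between the mice was 2.36 ± 0.58 (adjusted p = 0.0206). The opposite-strand entry gave -0.11 in C57B6-No1 (adjusted p = 0.89) and 0.97 for the difference between the mice (adjusted p = 0.259). Across the 3 mice the RefSeq entry differed by 0.39 (adjusted p = 0.799).

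**Figure D3:**
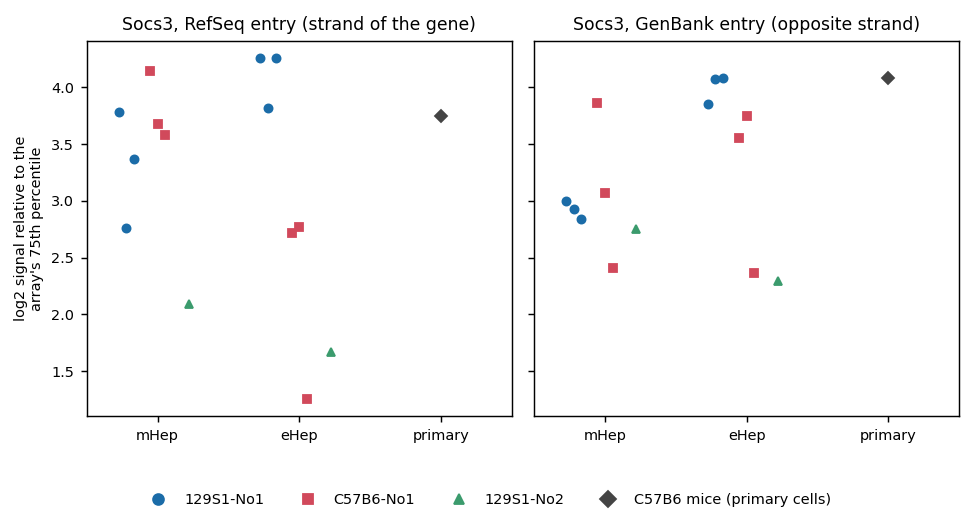
Log2 signal relative to the array's 75th percentile (vertical axis) of the 2 entries that carry the symbol Socs3, on the mHep, eHep and primary arrays (horizontal axis), with a point per array and colour and shape for the mouse. On the RefSeq entry the C57B6-No1 mHep arrays lie above the eHep arrays of that mouse, and on the opposite-strand entry they overlap.

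Against primary hepatocytes, Cd14 and Tnfaip3 were higher in both cultures. The primary cells have a single array, so the fit took its spread to be that of the cultured mouse means. A call also needed a log2 difference of at least 1. Of the 10 genes, 2 were called in mHep, against 9.98% of the 15168 genes tested, and the same 2 were called in eHep, against 15% of them. Both comparisons share the primary array. The median over all genes was -0.34 for mHep and -0.19 for eHep, and 0.23 and 0.32 after quantile normalization, so small differences from primary cells depend on the scaling.

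Cd14 was -1.11 on the primary array, far below the 4.90 of the lowest mHep array and the 2.31 of the lowest eHep array. The log2 difference was 6.96 ± 0.89, 125-fold, for mHep (adjusted p = 0.00647, limma) and 5.66 ± 0.89, 50.6-fold, for eHep (adjusted p = 0.00927). Tnfaip3 was -2.43 on the primary array and not well above background there, against at least 3.00 in mHep and 2.08 in eHep. Against the dimmest signal that passed as well above background on that array, Tnfaip3 was at least 61.3-fold higher in mHep and at least 49.6-fold higher in eHep. Its adjusted p was 0.00784 in mHep and 0.00712 in eHep on the measured signals, and 0.0099 and 0.00869 with background readings raised to that limit. Normexp background correction gave smaller differences, of 6.05 in mHep and 4.86 in eHep for Cd14 and of 4.36 and 4.15 for Tnfaip3, all called. Without C57B6-No1 the calls of Cd14 were lost in mHep (6.52, adjusted p = 0.0632) and in eHep (5.91, adjusted p = 0.0542), and that of Tnfaip3 in mHep (6.41 from the primary background reading, adjusted p = 0.0573). With the cultured arrays of the earlier scan, on which the primary array was read, Cd14 differed by 6.52 in mHep (adjusted p = 0.0152) and 4.35 in eHep (adjusted p = 0.0286), and Tnfaip3, again from a background reading, by 5.83 (adjusted p = 0.00655) and 5.66 (adjusted p = 0.00502).

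Lbp and Lcn2, both secreted by liver, were at 6.23 and 6.80 in primary cells. In mHep they averaged 5.70 ± 1.08 and 7.61 ± 0.79 (SD, n = 3 mice), with differences of -0.53 ± 1.30 (adjusted p = 0.825) and 0.82 ± 1.80 (adjusted p = 0.804). In eHep they averaged 3.28 ± 1.59 and 4.12 ± 2.63, and the differences of -2.94 ± 1.30 (adjusted p = 0.18) and -2.67 ± 1.80 (adjusted p = 0.362) were not called. The sign of the Lbp difference in mHep was positive under other scalings, at 0.95 after quantile normalization. Lcn2 in mHep was at 2.59 after quantile normalization and in the authors' deposited table, and at 1.30 with median scaling, 1.40 with the percentile over entries detected on all arrays and 1.55 with that over entries detected on the primary array, without a call. The primary cells are C57B6, whereas 2 of the 3 cultured mice are 129S1. A fit with C57B6-No1 alone took its arrays as samples, so the spread there is between arrays of 1 mouse and says nothing of other mice. In it eHep differed from primary cells by -3.86 for Lbp, which was called (adjusted p = 0.0174), and by -3.43 for Lcn2 (adjusted p = 0.152). Within the earlier scan, eHep had differences from primary cells of -4.57 for Lbp (adjusted p = 0.0376), -5.57 for Lcn2 (adjusted p = 0.011) and -1.75 for the opposite-strand entry of Socs3 (adjusted p = 0.0432), all called, as were 36.2% of all genes.

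Tlr4 was at -4.10 and not well above background on the primary array, and at least 1.63-fold higher in mHep. It was not called, with an adjusted p of 0.11 on the measured signals and 0.606 with background readings raised to the limit behind that bound. No bound above 1 could be given for eHep. Tlr2, at -0.57 in primary cells, differed by 2.58 ± 1.34 in mHep (adjusted p = 0.262) and 2.72 ± 1.34 in eHep (adjusted p = 0.222). Tlr4 was called higher in both cultures after quantile normalization (4.96 in mHep and 4.24 in eHep), where its primary signal is still a background reading. Nfkbia, at 5.52 in primary cells, differed by 0.45 in mHep and 0.21 in eHep, Ly96 by 0.58 and 0.67, and Myd88 by -0.47 and -0.37, none of which was called. Socs3 was at 4.08 in primary cells on the entry used and at 3.75 on the RefSeq entry, with RefSeq-entry differences of -0.68 in mHep (adjusted p = 0.721) and -1.07 in eHep (adjusted p = 0.556).

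**Figure D4:**
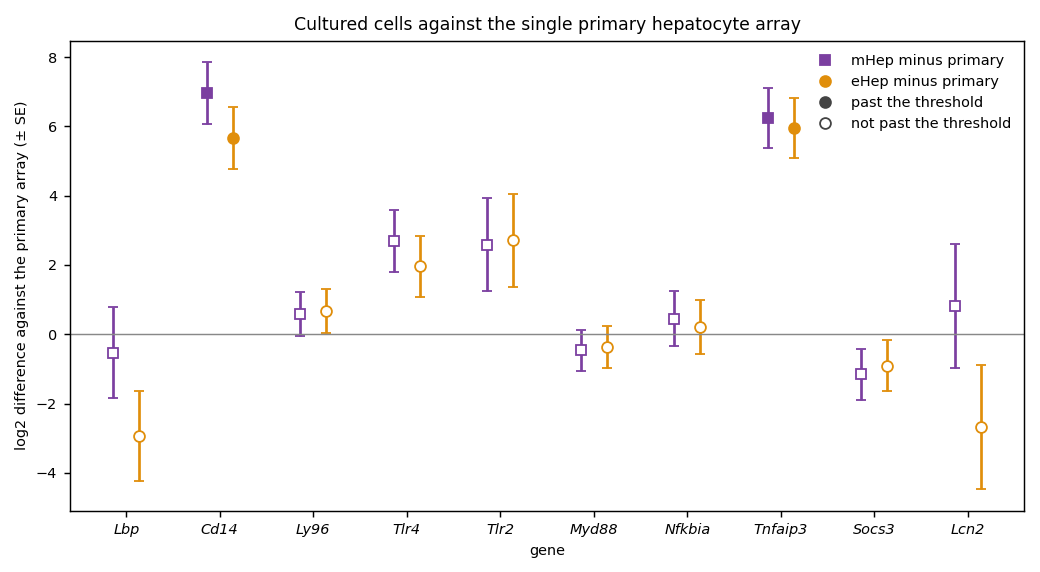
Log2 difference from the single primary hepatocyte array (vertical axis, bars ± SE from the fit) for each gene (horizontal axis), mHep as squares and eHep as circles, filled where past the threshold. Cd14 and Tnfaip3 are filled in both cultures at differences of 5.66 to 6.96, and no other gene is.

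Kupffer cells express Cd14, so their markers are given beside it. Of 13 macrophage markers on the array, Adgre1, Clec4f, C1qa, Cd163 and Timd4 were not well above background on any cultured array, and Adgre1, Clec4f and C1qa were so on the primary array. Csf1r, the receptor of a macrophage growth factor, and Cd68 were detected on all 14 cultured arrays, and Cd68 was not on the primary array. Of 7 mHep and 7 eHep arrays, C1qb was detected on 7 and 6, Aif1 on 7 and 4, Lyz2 on 6 and 3, Marco on 3 and 4, Vsig4 on 0 and 1, and Ptprc on 1 and 0. The summed signal of the list ran from -0.92 to 1.44 in mHep and from -1.72 to 2.11 in eHep, below the 3.78 of the primary array, where Cd14 was lowest. Within C57B6-No1 the list spanned -0.09 to 1.44 in mHep and -0.62 to 0.63 in eHep. There Lyz2, a lysozyme of myeloid cells, was at least 4.81-fold higher in mHep (adjusted p = 0.00296), and Aif1, a macrophage calcium-binding protein, at least 19.9-fold (adjusted p = 7.72e-05). Cd68, a macrophage lysosomal protein, fell by 1.42 in the same mouse (adjusted p = 0.0146). The part of macrophages in the Cd14 difference within this mouse was not tested.

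Lcn2 is stored in neutrophil granules, and of 6 neutrophil markers on the array Elane, Camp and Csf3r were not well above background on any array. Mpo, a granule enzyme of neutrophils, was so on 3 of 7 mHep arrays, 4 of 7 eHep arrays and the primary array. That is, it was well above background there. S100a8 and S100a9 are calcium-binding proteins that stressed epithelia also make. In C57B6-No1 S100a8 rose by 9.15 (adjusted p = 4.41e-08) and S100a9 was at least 1283-fold higher in mHep (adjusted p = 9.22e-08), and the summed list was 6.53 to 7.42 in mHep and -2.67 to -1.75 in eHep of that mouse. In 129S1-No1 the sums were 2.22 to 2.98 in mHep and 2.79 to 3.39 in eHep. In 129S1-No2 they were -2.56 in mHep, where 2 of the markers were well above background, and -4.14 in eHep, where 0 were. Lcn2 differed by 4.75 in 129S1-No2. The part of other cell types in the Lcn2 and Lbp differences was not tested.

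**Figure D5:**
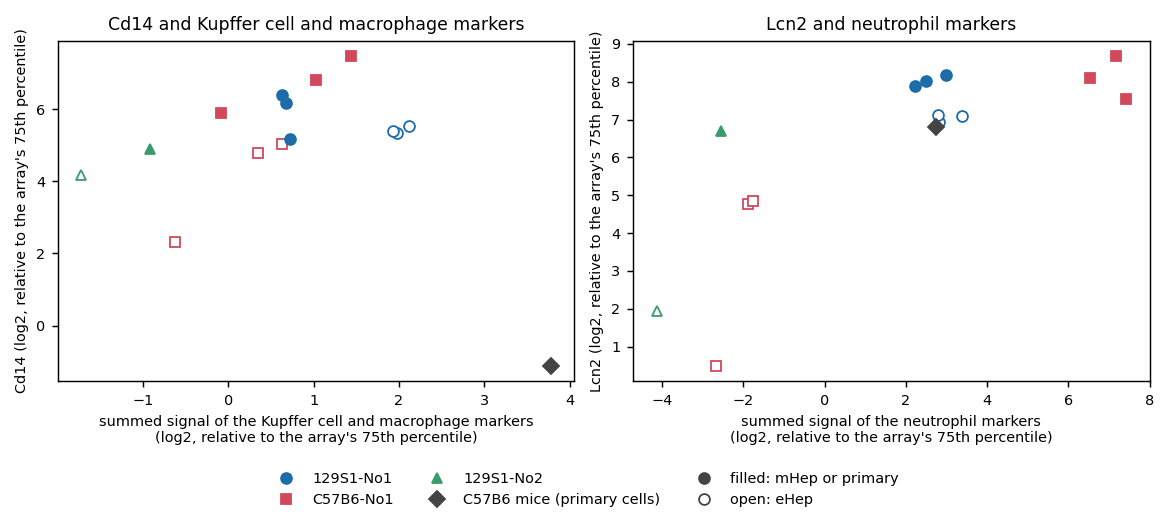
Left, Cd14 against the summed signal of 13 macrophage markers; right, Lcn2 against the summed signal of 6 neutrophil markers, both as log2 relative to the array's 75th percentile, with a point per array, filled for mHep and primary cells and open for eHep. The primary array has the highest macrophage sum (3.78) and the lowest Cd14 (-1.11).

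The wider pathway was followed in 4 lists with 82 genes, chosen with earlier results of these data known. Between mHep and eHep over the 3 mice, 1 of 71 tested genes was called, near the 1.84% of all genes: Traf1, an adaptor of TNF receptors, fell by 2.75 (adjusted p = 0.0443). Within C57B6-No1, 15 of 72 tested genes rose and 2 fell. Within 129S1-No1, 16 rose and 13 fell. Over all genes the shares called were 25.2% in C57B6-No1, 11.8% upward and 13.4% downward. In 129S1-No1 they were 44.4%, 17.3% upward and 27.1% downward. For the difference between these mice 17 of 72 tested genes were called, 14 upward and 3 downward. Over all genes 16.6% were called there, 10.3% upward and 6.29% downward. The counts by list below stand beside these shares. Against primary cells 6 of 73 tested genes were called in mHep, 2 higher and 4 lower, and 7 of 73 in eHep, 2 higher and 5 lower, beside 9.98% and 15% of all genes.

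Of the receptors and co-receptors, 5 of 9 tested rose in C57B6-No1 and none fell, with a median difference of 1.32. They were Pglyrp1, a peptidoglycan-binding protein, at 6.05, the intracellular peptidoglycan sensors Nod1 at 3.26 and Nod2 at 1.67, the double-stranded RNA receptor Tlr3, at least 1.65-fold higher, and the flagellin receptor Tlr5 at 1.32. In 129S1-No1 Tlr3 was at least 1.03-fold higher (adjusted p = 0.0235), and Pglyrp2, a peptidoglycan amidase, fell by 2.67. The change was larger in C57B6-No1 than in 129S1-No1 for 5 of them, Pglyrp1 (7.72), Nod1 (3.18), Nod2 (2.98), Pglyrp2 (2.87) and Tlr5 (1.99). Against primary cells 2 of 10 tested were lower in both cultures: Ly86, the partner of Cd180, at least 15.7-fold lower in mHep and at least 14.7-fold in eHep, and the lipoprotein receptor Scarb1, at -3.93 and -3.87.

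Among 21 tested adaptors and kinases, 3 rose in C57B6-No1: Irak3, which restrains Toll-like receptor signalling, by 1.51, the kinase Ikbke by 1.39 and the ubiquitin ligase Peli1 by 1.03. In 129S1-No1, 6 rose, namely Peli1 (1.78), Chuk (1.77), Tab2 (1.74), Traf6 (1.27), Ikbkg (1.07) and Tirap (1.02), and 2 fell, Ikbke (-1.52) and Tollip (-0.79). Chuk and Ikbkg are parts of the IkappaB kinase complex. The step differed between C57B6-No1 and 129S1-No1 upward for Ikbke (2.90) and Irak3 (1.65) and downward for Tab2 (-1.78) and Tirap (-1.28).

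Among 22 tested NF-kappaB subunits and inhibitors, 3 rose in C57B6-No1: Tnip3, a Tnfaip3-binding inhibitor, at least 9.66-fold, Nfkbiz, a nuclear IkappaB protein, by 1.98 and the ubiquitin ligase Birc3 by 1.79. Otud7b, a deubiquitinase, fell by 0.53. In 129S1-No1, 5 rose, Tax1bp1 (2.01), Cyld (1.88), Itch (1.55), Birc3 (0.82) and Otud7b (0.44), and 4 fell, Traf1 (-2.48), Nfkb2 (-1.72), Zfp36 (-1.43) and Nfkb1 (-0.99). Nfkb1 and Nfkb2 encode subunits of NF-kappaB itself. The step differed between the mice for Tnip3 (3.83, a value that includes background readings), Nfkbiz (1.41) and Otud7b (-0.98). Against primary cells, the subunit Relb was at least 30.6-fold higher in mHep (adjusted p = 0.00847) and at least 37.4-fold higher in eHep (adjusted p = 0.00588). Nfkbiz was at least 12.7-fold higher in mHep (adjusted p = 0.0344) and Nfkb1 was higher in eHep by 2.05 (adjusted p = 0.0491).

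Of 20 cytokine receptors and JAK-STAT feedback genes, 4 rose in C57B6-No1: the interleukin-1 receptor chains Il1r1 (2.86) and Il1rap (at least 1.31-fold higher), the oncostatin M receptor Osmr (2.65) and the TNF receptor Tnfrsf1b (1.18). Cish, a relative of Socs3, fell by 2.54. In 129S1-No1 Il1r1 (3.80), Il1rap (at least 3.995-fold higher), Osmr (1.66) and Il6st (0.84) rose, and Cish (-3.61), Socs1 (-3.27), Il1rn (-3.01), Tyk2 (-1.79) and Tnfrsf1b (-1.27) were among those that fell. The step was more positive in C57B6-No1 than in 129S1-No1 for genes that included Socs1 (4.46), Il1rn (3.61), Tnfrsf1b (2.45) and Tyk2 (2.00). Against primary cells Il1rap had differences of -6.70 in mHep and -9.37 in eHep, where it was well above background on 6 of 7 mHep arrays and 1 of 7 eHep arrays, so that the eHep value rests mostly on background readings. The differences of Lifr, the leukaemia inhibitory factor receptor, were -7.83 and -8.01. All 4 values were called lower. Stat3 was called in eHep alone, at -2.41 (adjusted p = 0.0497), while its difference between mHep and eHep was 0.73 ± 0.45 (adjusted p = 0.515).

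Over the 15 arrays, Lbp and Lcn2 had the highest correlation of any pair, a Pearson r of 0.946, and Cd14 and Tnfaip3 had 0.814. Lcn2 with Tnfaip3 gave 0.181 and Tlr4 with Myd88 -0.703. These values describe arrays that share mice, medium and the 1 primary array. Among 12121 other genes, the levels most like those of Lbp over the 15 arrays were those of Ldhd (r = 0.961) and Lrg1 (r = 0.94), and for Lcn2 those of Marveld3 (r = 0.963) and Vnn3 (r = 0.956). Cd14 was closest to Anxa13 (r = 0.939) and Pamr1 (r = 0.935), Tlr2 to Nfkbie (r = 0.955) and Rbm43 (r = 0.955), Nfkbia to Cd47 (r = 0.955) and Fndc7 (r = 0.955), and Tnfaip3 to Aida (r = 0.973) and Tead4 (r = 0.962). Myd88 was closest to Dhrs13 (r = 0.97) and Cdk9 (r = 0.965), Tlr4 to Samd9l (r = 0.949) and Cenpj (r = 0.944), and Ly96 to Eloc (r = 0.886) and Tyw5 (r = 0.874). The opposite-strand Socs3 entry was closest to the olfactory receptor genes Olfr166 (r = 0.985) and Olfr462 (r = 0.984).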

How the data were processed

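Total RNA of the 15 samples was labelled with Cy3 and hybridised to Agilent 1-colour mouse arrays, per the labels' protocols. Per the file headers, Feature Extraction (10.7.1.1 for some arrays, 10.7.3.1 for others) gave the processed signal, an intensity from which background and spatial trend were removed, without scaling across arrays. The value table the authors deposited holds log2 values whose making the sources used here do not state, and it served as an alternative. It had a correlation of 0.972 to 0.9999 with the log2 processed signal of each array. Its scale is log2 with equal quartiles on every array, and no column of it was left out.

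Spots of an entry were averaged without outlier spots, each array's 75th percentile was subtracted from its log2 signals, and for each gene the entry with the highest mean was used. limma 3.58.1 in R 4.3.3 was run on the arrays averaged per mouse and medium with mouse as a block, on the 12 arrays of 129S1-No1 and C57B6-No1 by mouse and medium, and on the mouse means with the primary array. Genes tested passed the scanner's background flag on every array of 2 or more mice in mHep or eHep, or on the primary array for comparisons with it, or on all 3 arrays of a mouse and medium in the fit within mice. P-values were adjusted over all genes tested by the Benjamini-Hochberg method. For a group that never passed that flag, the fold is a bound set by the dimmest signals that did. The mouse pairs mHep and eHep per the labels. The deviations of the same mouse in both media correlated at 0.563 in C57B6-No1, 0.539 in 129S1-No2 and 0.397 in 129S1-No1, and those of different mice at most at 0.0114. As the deviations are from the mean of only 3 mice, positive values within mice tend to bring negative ones between mice. The gap between both kinds is thus partly built in.

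The members, the 4 pathway lists and the marker lists were chosen with earlier results of these data known. Named genes were all 10 members, the called genes of each list (at most 6 a direction), and for each member the 2 genes with the highest correlation. A gene that this rule names is not reported here. Alternatives were another background correction (normexp, offset 50), 4 other scalings, the value table of the authors, other filters and uses of entries, trended moderation, slide, scan and replicate terms, and leaving out each mouse or array. The RefSeq entry of Socs3, slide in the fit within mice and a percentile over entries detected on the primary array were added after the values were seen. The fits were tested on simulated data. Promoters came from a RefSeq table of build GRCm38.p6, and no coordinates were moved between builds. Plots came from Python 3.11.15 with pandas 2.3.3 and matplotlib 3.10.9.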

Additional observations from a re-analysis of the deposited data

Results flagged for a closer look

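Cd14 in the third eHep replicate of C57B6-No1 stood apart from the other eHep arrays, at 2.31, when the nearest of them was 4.18. The gap was 0.579 of the whole range of the 7 arrays, and 20 such groups of 7 arrays were looked at. Chance alone would flag about 1 in 20 if the arrays were independent, which repeats from the same mice are not. The same array was the lowest eHep array for Lcn2 (0.50), Lbp (0.95), Nfkbia (3.93) and Tlr2 (-0.85), and it was scanned earlier than the other eHep replicates of that mouse. The part of the scan in these levels was not tested. Without it Cd14 in C57B6-No1 differed by 1.82 between mHep and eHep (adjusted p = 0.0149).

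With Socs3 taken by its opposite-strand entry, the step from eHep to mHep differed between mice for 3 genes by the interaction term. The difference of C57B6-No1 minus 129S1-No1 was 2.72 for Lbp, 2.40 for Nfkbia and 1.48 for Tnfaip3. As means of 3 arrays, Nfkbia and Tnfaip3 had differences above 0 in C57B6-No1 and below 0 in 129S1-No1, but for Tnfaip3 the value of 129S1-No1 was 0.04 and for Nfkbia -0.33 after quantile normalization. The adjusted p over the fits that left out 1 array ran from 0.0118 to 0.0752 for Lbp, from 0.0133 to 0.105 for Nfkbia and from 0.00754 to 0.0729 for Tnfaip3.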

How the results depend on the processing

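Each of the 60 results of the 10 genes was recomputed under alternatives, 1312 values in all, of which 1131 kept direction and side of the threshold, 64 (8 results) lost a call, 59 (20 results) gained one and 58 (19 results) changed sign. Between mHep and eHep, 1 of the 10 genes was called with median scaling, 2 with no filter, 3 with the 14 arrays as samples, 2 with slide as a block in those, 2 within the earlier scan and 0 to 2 without 1 mouse. Over all genes that comparison called 268, against 110 after quantile normalization or in the authors' table, 105 with the percentile over entries detected on all arrays, 176 after normexp, 149 with a strict filter, 521 with median scaling, 658 with no filter, 470 and 1520 within the later and earlier scans, 3006 with slide and 5024 with arrays as samples. Without mouse as a replicate block it called 0 of the 10 genes and 2 of all genes. In 129S1-No1 the count was 2 with median scaling, 0 with no filter, 0 with the mean of all entries, 6 in the later scan and 0 to 5 without 1 array. In C57B6-No1 it was 3 to 5 without 1 array. For the difference between these mice it was 0 after normexp or quantile normalization, 1 in the authors' table and 1 with no filter. It was 6 in the later scan and 0 to 4 without 1 array. With slide as a block the change in C57B6-No1 came from its replicate 3 alone, so no count is given. Over all genes, normexp called 3674 in 129S1-No1, 1538 in C57B6-No1 and 610 for the difference. With the replicate number as a replicate block, an order of arrays within a mouse and no pairing by the labels, the counts were 1 in 129S1-No1, 4 in C57B6-No1 and 2 for the difference. Against primary cells, the strict filter called 1 gene in mHep and 1 in eHep because Tnfaip3 was then not tested, the arrays of the earlier scan called 5 in eHep, and leaving out 1 mouse gave 0 to 2 in mHep and 1 to 2 in eHep.

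The changed signs were all of values that were not called in the fit reported, and their cause was not tested. For Tlr4 the mean of all entries includes an entry that was not well above background on any array. Between mHep and eHep, Ly96 was 0.028 and Myd88 0.019 with the percentile over entries detected on all arrays. Ly96 was 0.13 with arrays as samples, 0.28 with slide, 0.35 in the later scan and -0.36 to 0.29 without 1 mouse. Tlr2 was 0.33 and Tnfaip3 -0.27 with slide. The earlier scan gave Tlr2 0.84, Myd88 0.14 and Socs3 0.25. Without 1 mouse Tlr2 ran from -0.61 to 0.41, Myd88 from -0.19 to 0.10, Socs3 from -0.60 to 0.17, Nfkbia from -0.30 to 0.90 and Tnfaip3 from -0.062 to 0.68. Socs3 was 0.072 with the mean of all entries and 0.39 on the RefSeq entry. In 129S1-No1, Tnfaip3 was 0.044 after quantile normalization and 0.044 in the authors' table, Tlr4 -0.0026 with the mean of all entries, and Ly96 -0.11 to 0.49 without 1 array. In C57B6-No1, Myd88 was -0.0080 with median scaling and -0.23 to 0.32 without 1 array. Socs3 there was 0.016 with the percentile over entries detected on all arrays, 0.72 with the mean of all entries, 0.038 with slide, 1.56 on the RefSeq entry and -0.54 to 0.24 without 1 array. For the difference between these mice, Ly96 was -0.10 with slide and -0.026 to 0.77 without 1 array, and Tlr4 -0.014 to 1.28 without 1 array. In mHep against primary cells, Lbp was 0.059 after normexp, 0.95 after quantile normalization, 0.95 in the authors' table, 0.050 with the percentile over entries detected on all arrays, 0.20 with that over the primary array, 0.073 with C57B6-No1 alone and -0.85 to 0.09 without 1 mouse. Myd88 there was 0.014 after normexp, 0.015 with median scaling, 0.11 with the percentile over all arrays and 0.27 with that over the primary array, and Tlr4 was -0.084 with the mean of all entries. In eHep against primary cells, Tlr4 was -0.41 after normexp, -0.25 with the mean of all entries and -0.027 with readings raised to the background limit. Myd88 was 0.16, 0.091, 0.094 and 0.29 after normexp, median scaling, the percentile over all arrays and that over the primary array. Nfkbia was -0.33 with C57B6-No1 alone, -0.93 with the earlier scan and -0.29 to 0.48 without 1 mouse. Precision is limited by 3 mice and 1 primary array, and Tlr4 and Tnfaip3 in primary cells by signals not well above background.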
